A study of Mus musculus with 4 samples.

Results

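The axonemal dynein and cilia and flagella associated protein (Cfap) genes were followed in cells enriched for diplotene spermatocytes, with and without *Tdrd6*. They were chosen by symbol, as every gene whose name starts with Dnah, Dnai, Dnaic, Dnal, Dnali, Dnaaf or Cfap and a number. The annotation holds 56 such symbols, and 54 of them had a row among the 37718 gene rows. The counts of *Dnah7c* and *Cfap99* were not analysed here. The 54 genes comprised 14 dynein heavy chains, 5 intermediate and light chains, 4 dynein assembly factors, 30 Cfap genes and *Dnah2os*, a noncoding RNA antisense to *Dnah2* that carries a matching symbol.

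The study asked how splicing changes in spermatocytes that lack TDRD6, a Tudor domain protein of the male germ line. RNA was taken from 2 *Tdrd6*+/- and 2 *Tdrd6*-/- samples at 20 days post partum (dpp), each a pool of testes from at least 4 mice. Cells were isolated with magnetic beads against human CD4, which both genotypes express from the endogenous *Tdrd6* promoter, so that heterozygotes stand as controls and no wild type was included. Per the paper such preparations were mostly but not wholly diplotene cells, and secondary spermatocytes and round spermatids were counted as well. Beyond the pools, no source says how the 2 samples of a genotype were separated, and p-values measure only the spread between these samples. In a bulk sample, fewer cells of a stage and less RNA per cell cannot be told apart.

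The files held between 43778449 and 47221554 tallied fragments per sample. Counts of *Tdrd6* itself were 33220 and 39322 with 1 intact allele and 359 and 400 without any. Across the whole libraries there were 52.7 and 41.9 intron counts per 100 gene counts in *Tdrd6*+/- and 42.5 and 30.6 in *Tdrd6*-/-, so *Tdrd6*+/- 1 was the highest and *Tdrd6*-/- 2 the lowest. Summed spermatocyte markers other than *Tdrd6* (9 genes) gave 3115 and 2900.4 counts scaled to library size (CPM) in *Tdrd6*+/- and 2856 and 3185 in *Tdrd6*-/-, which overlap. Among them *Sycp1*, of the synaptonemal complex, rose (log2 fold change 0.60, edgeR adjusted p = 0.0467) and *Piwil1*, a piRNA-binding protein, fell (-0.44, edgeR adjusted p = 0.0773). Spermatid markers (8 genes) gave 10.8 and 14.8 against 24.6 and 22.0 CPM, and spermatogonial markers (7 genes) 24.7 and 23.9 against 28.5 and 32.7 CPM. Sertoli, Leydig and blood lists stayed between 2.28 and 48.5 CPM in all 4 libraries. The multiciliated epithelium list (6 genes) gave 1101 and 1255 against 1302 and 1462 CPM, and 1 of its 4 tested genes, *Foxj1*, was called. Nearly all of this sum was *Tubb4b*, at 1041 and 1185 against 1218 and 1372 CPM. *Mcidas* had 0 to 4 counts per sample and *Scgb1a1* 0 to 1. No marker gene with a row was at 0 in all 4 libraries.

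A sperm tail beats through dynein arms, which are motors fixed in rows along the outer microtubule doublets. Each arm is built on very large heavy chains that carry the motor domain, joined by intermediate and light chains, and is put together in the cytoplasm by the Dnaaf factors before it enters the axoneme. Many Cfap proteins belong to the central pair, to the radial spokes or to the inside of the doublet wall. Spermatocytes already transcribe many of these genes, although the tail is built only in spermatids, after meiosis.

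Promoters were read for 46 of the 56 symbols, *Dnah7c* included, from the RefSeq table of GRCm38.p6, as the 250 bases before the annotated start. *Dnah8* and *Dnah17* are shown because they were the most abundant outer arm heavy chains here (the RefSeq starts of both lie inside the longer gene models of the annotation used for lengths), *Dnah5* because it was nearly silent, and *Dnah10* because it holds both of the commonest motifs found. Capitals mark a match to a searched motif.
*Dnah8*, chr17:30626686-30626935, plus strand: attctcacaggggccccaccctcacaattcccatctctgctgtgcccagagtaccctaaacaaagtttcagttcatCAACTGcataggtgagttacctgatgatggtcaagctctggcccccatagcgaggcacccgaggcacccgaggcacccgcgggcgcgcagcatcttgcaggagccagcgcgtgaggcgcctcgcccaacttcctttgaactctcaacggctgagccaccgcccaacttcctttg
*Dnah17*, chr11:118129220-118129469, minus strand: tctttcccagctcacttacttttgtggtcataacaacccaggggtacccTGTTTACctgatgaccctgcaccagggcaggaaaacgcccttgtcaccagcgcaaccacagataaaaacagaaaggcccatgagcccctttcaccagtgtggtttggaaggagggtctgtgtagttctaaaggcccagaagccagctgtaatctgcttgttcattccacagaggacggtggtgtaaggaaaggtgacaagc
*Dnah5*, chr15:28203516-28203765, plus strand: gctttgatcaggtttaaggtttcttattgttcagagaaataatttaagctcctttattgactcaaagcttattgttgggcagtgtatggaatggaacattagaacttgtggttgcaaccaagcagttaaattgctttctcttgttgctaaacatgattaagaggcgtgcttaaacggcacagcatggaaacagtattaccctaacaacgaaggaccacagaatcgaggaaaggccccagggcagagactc
*Dnah10*, chr5:124724835-124725084, plus strand: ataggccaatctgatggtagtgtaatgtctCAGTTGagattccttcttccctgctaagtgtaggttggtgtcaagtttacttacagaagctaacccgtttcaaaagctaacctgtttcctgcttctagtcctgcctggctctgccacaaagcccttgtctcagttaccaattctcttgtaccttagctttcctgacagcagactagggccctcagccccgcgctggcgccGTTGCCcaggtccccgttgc

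The searched letters were GTTGCC (the RFX half-site), CAGTTG (the MYB core), TGACGTCA (the CRE palindrome) and GTAAACA (a forkhead site), each on both strands. RFX, MYB, CREM and forkhead proteins are regulators of ciliary or testis genes. The RFX half-site lay in 16 of 49 promoters of these genes (32.7%) and in 10.4% of all 32851 promoters of the same length. Genes with it include *Dnah7a*, *Dnah7b* and *Dnah7c*, whose transcripts share sequence and which were counted apart. For the MYB core the figures were 11 of 49 (22.4%) and 11.1%. The forkhead letters were found in 3 of 49 (6.12%) against 3.17%, and the CRE palindrome in 1 of 49 (2.04%), that of *Dnah6*, against 1.55%. The motifs overlap no other searched motif in the 4 sequences shown, and a match is a description of letters only. *Dnah5* held none of the 4 in this window.

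Levels are given as CPM per kb of annotated exon, so that long and short genes can be set side by side. Exon length counts once each base in an exon of any annotated transcript, so it can exceed that of a single transcript. *Dnah8*, an outer arm heavy chain of the sperm tail, stood first with 697 ± 180 CPM per kb (SD, n = 4 samples). It had 829 and 863 CPM per kb in *Tdrd6*+/- and 608 and 486 in *Tdrd6*-/-. *Cfap206*, a protein of the radial spoke base, followed with 391 ± 48.4, and *Cfap97* with 250 ± 15.0 CPM per kb (SD, n = 4). At the other end *Dnah5* had 0.0446, *Dnah9* 0.151 and *Cfap100* 0.399 CPM per kb, the lowest means among the 52 genes that passed the filter on low counts. *Cfap97d2* (0 to 4 counts per sample) and *Dnah2os* (0 to 2) did not pass it.

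**Figure D1:**
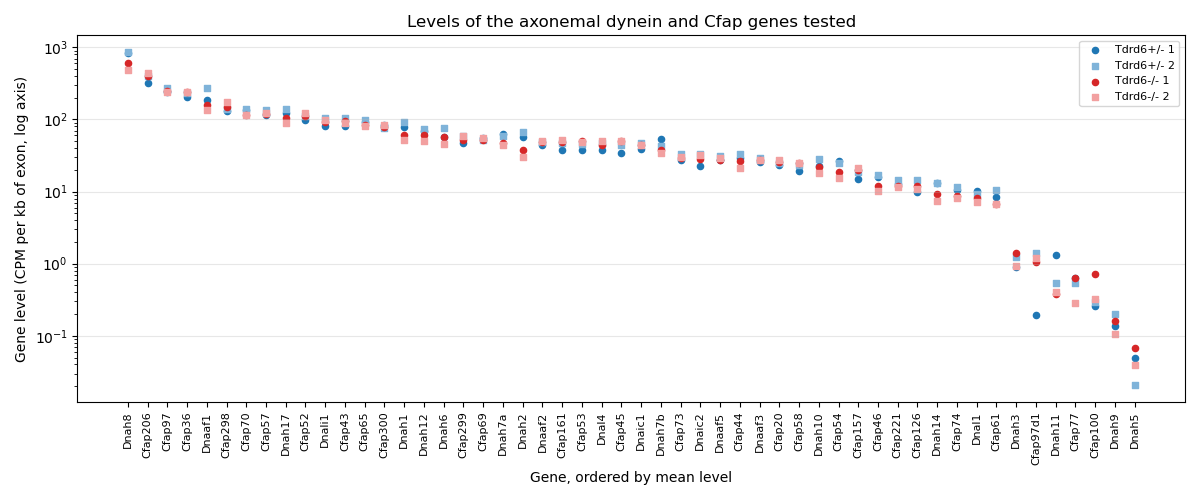
Level of each of the 52 tested genes in the 4 samples, in CPM per kb of annotated exon on a log axis, ordered by the mean. *Dnah8* stands first at a mean of 697 CPM per kb, and the genes from *Dnah3* to *Dnah5* form a low group at a mean of 1.13 or less. The rows of *Cfap43* and *Dnaaf3* also count overlapping genes but are divided by the exon length of the named gene alone.

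The *Dnah8* transcript alone made up a large part of the library. Its counts were 582507 and 644551 in *Tdrd6*+/- and 515785 and 417368 in *Tdrd6*-/-, which is 2.20% and 2.20% against 1.69% and 1.33% of all gene counts. It had more counts than any other gene in 3 libraries and ranked 2 in *Tdrd6*-/- 2. All genes of the set together took 3.89% and 4.02% of gene counts in *Tdrd6*+/- and 3.33% and 2.84% in *Tdrd6*-/-. Without *Dnah8* the shares were 1.68% and 1.82% against 1.64% and 1.51%, which differ less between the genotypes.

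The outer arm heavy chains divided into a sperm pair and an airway group by level. *Dnah8* and *Dnah17*, the pair found in sperm tails, were both abundant. *Dnah5*, *Dnah9* and *Dnah11*, the chains of airway cilia, together had 579 and 316 counts in *Tdrd6*+/- and 290 and 259 in *Tdrd6*-/-. Most of these were on *Dnah11*, and *Dnah5* had only 20, 9, 34 and 20 counts, in the order *Tdrd6*+/- 1 and 2 and *Tdrd6*-/- 1 and 2. At such counts changes of *Dnah5* and *Dnah9* of the size seen in the other chains were not detectable. Among the inner arm chains *Dnah3* was scarce, with 1.13 CPM per kb, and the other 8 with a row lay between 10.8 (*Dnah14*) and 70.9 CPM per kb (*Dnah1*).

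The comparison of the genotypes asked which of these genes changed in *Tdrd6*-/- cells. Gene counts were tested with the edgeR quasi-likelihood test over 16555 genes at a false discovery rate of 0.1. In *Tdrd6*-/- 11 of the 52 tested genes fell, none rose and 41 did not pass, and 22 of the 52 had an unadjusted p under 0.05. Over all genes tested, 3.78% fell and 1.02% rose. The median log2 fold change was -0.05 over the 52 genes and 0.01 over all genes. The values of the genotypes did not overlap for 32 of the 52 genes, 21 lower and 11 higher in *Tdrd6*-/-, and for 43.5% of all genes tested. Without the filter on low counts, with 26309 genes tested, edgeR called none of the genes (18 had an unadjusted p under 0.05). DESeq2 called 11 of them, but with its own filter on low counts, which left 13047 genes tested.

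The change was spread unevenly over the classes. Of the 14 heavy chains 7 fell, with a median log2 fold change of -0.42, and 12 of the 14 values were negative. Of 29 tested Cfap genes 3 fell (median 0.01), of 4 assembly factors 1 fell (median -0.03), and of 5 intermediate and light chains none was called (median 0.06).

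The calls depended on the sample *Tdrd6*-/- 2, which was the lowest in 10 of the 11. Without it *Dnah2* and *Dnah11* were still called lower. The other 9 were not, with log2 fold changes from -0.52 (*Dnaaf1*) to -0.33 (*Dnah17*) and edgeR adjusted p from 0.252 (*Dnah8*) to 0.736 (*Dnah17*). Over all genes the calls went from 794 to 257 in that fit. *Dnah2* was called whichever sample was left out.

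*Dnah2*, an inner arm heavy chain on chromosome 11 (69420809 to 69549110 on the minus strand, GRCm38), showed the smallest p. It had 866 and 1003 CPM in *Tdrd6*+/- and 567 and 446 in *Tdrd6*-/-. Both *Tdrd6*-/- samples lay well under both *Tdrd6*+/- samples, with a log2 fold change of -0.88 (SE 0.14, edgeR adjusted p = 0.000609). *Dnah8* (chromosome 17, 30624354 to 30877365, plus strand) had 22244 and 23138 CPM in *Tdrd6*+/- and 16310.3 and 13041 in *Tdrd6*-/-. The samples did not overlap, and the log2 fold change was -0.63 (SE 0.14, edgeR adjusted p = 0.0134).

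*Dnah17*, the partner of *Dnah8* in the sperm outer arm, had 1964 and 2272 CPM against 1674 and 1431. Its log2 fold change was -0.45 (SE 0.14, edgeR adjusted p = 0.0800). With RLE size factors *Dnah17* and *Dnah7b* were not called (edgeR adjusted p = 0.115 and 0.111), which left 9 genes. *Dnah1*, an inner arm chain known from infertile men with malformed sperm tails, had 1018 and 1189 CPM against 802 and 687, again without overlap. Its log2 fold change was -0.57 (SE 0.14, edgeR adjusted p = 0.0206). *Dnah14*, at 212 and 215 CPM against 152 and 121, fell by 0.64 on the log2 scale (SE 0.14, edgeR adjusted p = 0.00915).

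*Dnah7b*, an inner arm chain, had 1087 and 869 CPM in *Tdrd6*+/- and 742 and 689 in *Tdrd6*-/- (log2 fold change -0.45, SE 0.14, edgeR adjusted p = 0.0800). Without *Tdrd6*+/- 1 its log2 fold change was -0.27 (edgeR adjusted p = 0.457). *Dnah7a*, just outside the threshold, had 797 and 746 against 608 and 562 CPM (log2 fold change -0.40, edgeR adjusted p = 0.105). The counts of both are uncertain, because *Dnah7a*, *Dnah7b* and *Dnah7c* share sequence. Of the 50-base words in *Dnah7a* transcripts, 29.4% also occur in *Dnah7b* and 29.1% in *Dnah7c*. Of those in *Dnah7b* transcripts, 18.6% occur in *Dnah7a* and 23.6% in *Dnah7c*. No heavy chain outside these 3, of 15 annotated, shares any with another. How fragments on shared sequence were counted is not given in the sources used here.

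*Dnah11* had 19.2 and 7.86 CPM in *Tdrd6*+/- and 5.50 and 5.78 in *Tdrd6*-/- (log2 fold change -1.26, SE 0.29, edgeR adjusted p = 0.0163). The value rests on *Tdrd6*+/- 1, which was far above the other *Tdrd6*+/- sample, and without that sample the log2 fold change was -0.47 (edgeR adjusted p = 0.548). The 6 heavy chains that remain were not called. *Dnah12* (-0.37), *Dnah6* (-0.38) and *Dnah10* (-0.35) had negative log2 fold changes with no overlap between the genotypes. *Dnah9* stood at -0.32 (SE 0.32), *Dnah3* at 0.12 (SE 0.22) and *Dnah5* at 0.65 (SE 0.48), and in these 3 the genotypes overlapped.

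**Figure D2:**
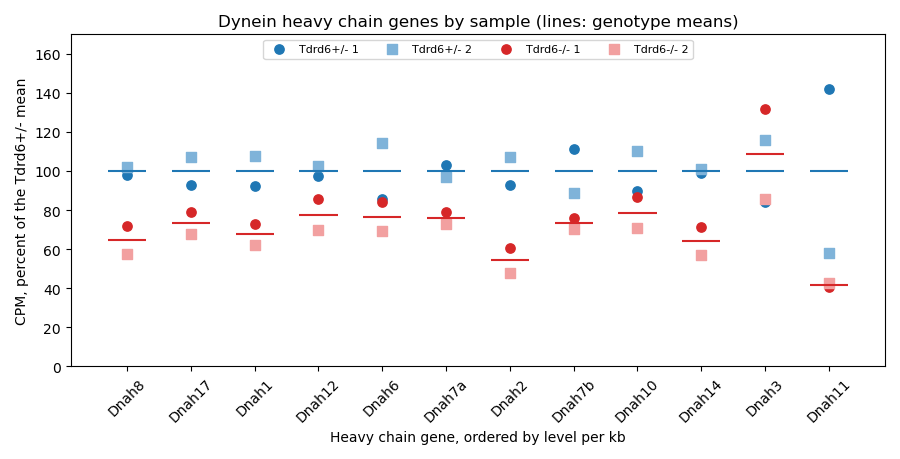
CPM of the 12 heavy chain genes with at least 1000 counts in all, each as a percentage of its *Tdrd6*+/- mean, with points for the 4 samples and lines for genotype means. In 11 of the 12 the *Tdrd6*-/- mean lies under the *Tdrd6*+/- mean, *Dnah3* being the exception, and *Tdrd6*-/- 2 is the lowest sample in 10 of them.

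The intermediate and light chains, which sit at the base of the dynein arm, were not called. *Dnaic1* and *Dnaic2*, the intermediate chains of the outer arm, had log2 fold changes of 0.05 (SE 0.13) and 0.11 (SE 0.15). *Dnali1*, a light intermediate chain of the inner arm, stood at 0.06 (SE 0.14) and *Dnal4* at 0.16 (SE 0.14). *Dnal1*, a light chain of the outer arm, had 70.1 and 64.4 CPM against 56.7 and 49.7, a log2 fold change of -0.34 (edgeR adjusted p = 0.264).

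Of the assembly factors, *Dnaaf1*, needed to assemble dynein arms in the cytoplasm, had 526 and 776 CPM in *Tdrd6*+/- and 452 and 382 in *Tdrd6*-/-. The log2 fold change was -0.64 (SE 0.16, edgeR adjusted p = 0.0237). The high value of *Tdrd6*+/- 2 carries part of it, and without that sample the log2 fold change was -0.33 (edgeR adjusted p = 0.220). *Dnaaf2* (0.08) and *Dnaaf5* (-0.05) lay near 0 on the log2 scale. *Dnaaf3* (0.00) was counted in 1 row with the overlapping *Tnni3*, so its value holds for both genes together.

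The 3 Cfap genes that fell were *Cfap54*, *Cfap46* and *Cfap61*. *Cfap54*, of the central pair, had 394 and 362 CPM in *Tdrd6*+/- and 274 and 228 in *Tdrd6*-/- (log2 fold change -0.59, SE 0.13, edgeR adjusted p = 0.0143). *Cfap46*, likewise of the central pair, had 145 and 155 against 110.0 and 94.9 CPM (log2 fold change -0.55, SE 0.13, edgeR adjusted p = 0.0224). *Cfap61*, of a complex at the radial spokes, had 89.0 and 112 against 71.8 and 70.4 CPM (log2 fold change -0.50, SE 0.14, edgeR adjusted p = 0.0570). Without *Tdrd6*+/- 2 the log2 fold change of *Cfap61* was -0.32 (edgeR adjusted p = 0.229), and without *Tdrd6*-/- 1 it was -0.51 (edgeR adjusted p = 0.201). None of the 3 overlapped between the genotypes, which their choice by a small p makes likely. *Cfap74*, a further central pair gene, had a log2 fold change of -0.40 and missed the threshold (edgeR adjusted p = 0.125).

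The Cfap genes that fell were the long ones. All 5 tested Cfap genes with at least 8 kb of exon had a negative log2 fold change and 3 of them were called. None of the 23 shorter ones with a row of their own was called, and their median log2 fold change was 0.12. Among them, *Cfap69* (7.9 kb, log2 fold change -0.02) and *Cfap65* (7.8 kb, -0.22) lay just under the limit of 8 kb. This limit and that of 10 kb below were not part of the planned tests, so both splits are descriptions and no tests. *Cfap43*, counted in 1 row with overlapping genes, stood at 0.01.

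The whole set was split by length too, at 10 kb of exon. Of the genes with at least 10 kb of exon 9 of 16 fell (56.2%), against 161 of 1286 other genes of that length (12.5%). Of the shorter ones 2 of 34 fell (5.88%), against 401 of 14308 others (2.80%). The median log2 fold changes were -0.45 for the long genes and -0.15 for other long genes, and 0.05 and 0.03 for the shorter ones. Exon length and log2 fold change gave Pearson's r of -0.58 and Spearman's rho of -0.62 over 50 genes with a row of their own, and -0.17 and -0.21 over 15594 other genes. These are descriptions across genes measured in the same 4 libraries, and genes are not independent replicates.

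**Figure D3:**
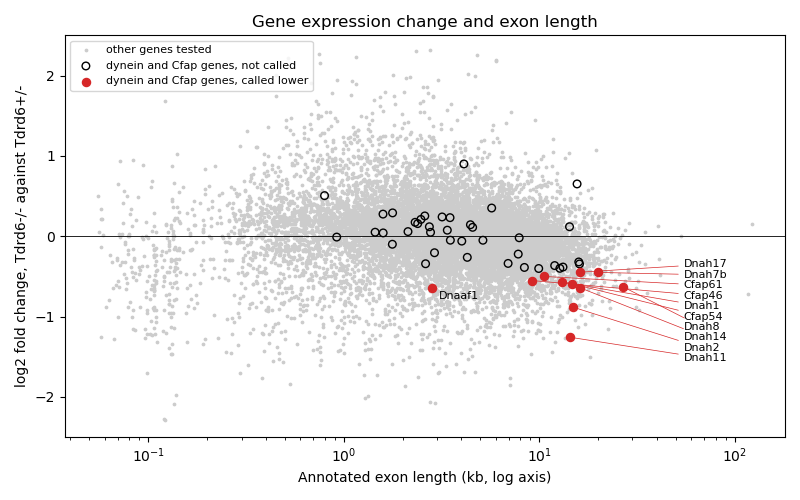
Log2 fold change of gene expression (*Tdrd6*-/- against *Tdrd6*+/-) by annotated exon length in kb on a log axis, for 15644 genes with a row of their own, of which 3 lie beyond the vertical axis. The called genes of the set (red) sit at the long end, below 0, with *Dnaaf1* the only called one under 5 kb.

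A measure of how reads lie along transcripts moved with genotype. The share of a gene's exon segment counts that fell in the first of 3 equal parts of its segments, from the 5′ end, had a median of 21.0% and 21.1% in *Tdrd6*+/- and 21.9% and 22.2% in *Tdrd6*-/- over 6235 genes. It was higher in *Tdrd6*-/- for 68.5% of these genes, for 28 of 43 genes of the set, and for 9 of 13 with at least 10 kb of exon. The median of the 43 levels was nonetheless lower in *Tdrd6*-/- (29.9% and 29.6% against 29.3% and 28.7%), while the median of the 43 differences was 0.30 percentage points upward. In *Dnah8* the share was 30.5% and 30.8% against 31.0% and 30.4%, which overlap. The part of this measure in the decrease of the long genes was not tested.

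In 7 other lists of axonemal and dynein genes 4 of 60 tested genes fell (6.67%, against 3.78% of all genes) and none rose. Of 7 radial spoke genes (median log2 fold change 0.15), 10 of the dynein regulatory complex (0.10), 7 of the docking complex and rulers (0.10) and 9 further assembly factors (0.07), none was called. Of 6 central pair genes (median -0.04) 1 fell, *Hydin*, with 592 and 678 CPM against 395 and 319 (log2 fold change -0.83, edgeR adjusted p = 0.000952). Of 5 tektins (median 0.09), filament proteins of the doublet wall, 1 fell, *Tekt2*, at 34.6 and 54.2 against 19.2 and 16.3 CPM (log2 fold change -1.33, edgeR adjusted p = 0.000210). Of 16 cytoplasmic and intraflagellar dynein genes (median 0.05) 2 fell, and both are heavy chains. *Dync1h1*, the cytoplasmic motor, had a log2 fold change of -0.49 (edgeR adjusted p = 0.0545), and *Dync2h1*, the motor of intraflagellar transport, of -0.50 (edgeR adjusted p = 0.0519).

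Of 9 tested regulators of ciliary and testis genes, 1 rose and 1 fell. *Foxj1*, the regulator of motile cilia, rose from 13.6 and 18.4 CPM to 27.2 and 24.7 (log2 fold change 0.70, edgeR adjusted p = 0.0402). *Sox30*, a factor of late spermatocytes and spermatids, had 40.7 and 48.5 against 32.6 and 28.8 CPM (log2 fold change -0.54, edgeR adjusted p = 0.0671). *Rfx2* (-0.28) and *Mybl1* (-0.11) were not called. Of 4 tested spermatid markers 2 rose in *Tdrd6*-/-, *Acrv1* and *Spaca1*, with log2 fold changes of 0.96 and 0.83. By staining, the paper found no significant difference between the genotypes in the stages of cells isolated in this way. How far these differences in regulators and markers bear on the values above was not tested.

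The next comparison asked whether unspliced RNA of these genes changed relative to spliced RNA. Intron counts per 100 gene counts were compared with the edgeR quasi-likelihood test of the interaction of kind of count and genotype, with intron and gene counts scaled apart, so that a change is relative to that of all genes. Of 50 genes tested 4 fell and none rose. Over 13030 genes tested, 1.8% fell and 1.2% rose. The median log2 change was 0.02 over the 50 genes and 0.06 over all genes.

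*Cfap299*, which spans 471 kb outside its exons on chromosome 5 (98329304 to 98802047, plus strand), had by far more intron than exon counts. It had 1416 and 677 intron counts per 100 gene counts in *Tdrd6*+/- and 567 and 303 in *Tdrd6*-/-. The log2 change was -0.93 (SE 0.23, edgeR adjusted p = 0.0246), and the log2 fold change of its gene level was 0.05 (SE 0.14). Without *Tdrd6*+/- 1, its highest sample, the log2 change was -0.49 (edgeR adjusted p = 0.737). Since 4 other annotated genes overlap it on the same strand, its intron counts may hold reads of those genes. The other 3 were short or middle-sized. *Dnal4*, a dynein light chain, had 27.3 and 19.0 against 14.8 and 10.2 (log2 change -0.58, SE 0.16, edgeR adjusted p = 0.0569).

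*Cfap58*, a protein of the sperm tail, had 52.1 and 47.5 intron counts per 100 gene counts against 34.6 and 22.3 (log2 change -0.53, SE 0.16, edgeR adjusted p = 0.0689). *Cfap53*, a protein inside the doublet microtubules, had 34.1 and 25.6 against 19.1 and 14.6 (log2 change -0.52, SE 0.16, edgeR adjusted p = 0.0836). In all 4 genes both *Tdrd6*-/- samples lay under both *Tdrd6*+/- samples, which their choice by a small p makes likely. In each of the 4 the highest sample was *Tdrd6*+/- 1 and the lowest *Tdrd6*-/- 2, the same samples that stood highest and lowest in intron counts over whole libraries. The part of that difference between libraries was not tested. With 1 scaling factor for both kinds of count only *Cfap299* was called, and the DESeq2 likelihood ratio test and limma called none of the 50 (unadjusted p under 0.05 for 8 and 4 genes).

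No heavy chain was called in the ratio. Scaled against all genes, as in the test, the median log2 change was 0.21 over the 14 heavy chains and 0.06 over all genes. It was 0.34 for *Dnah8* and *Dnah17* and -0.20 for *Dnah5*, *Dnah9* and *Dnah11*. The ratios that follow are not scaled in this way. *Dnah8* had 15.0 and 13.7 intron counts per 100 gene counts in *Tdrd6*+/- and 14.8 and 14.6 in *Tdrd6*-/-. *Dnah17* had 15.4 and 14.4 against 15.0 and 15.5, and *Dnah1* 17.4 and 14.7 against 16.7 and 16.5. *Dnah2* had 31.9 and 28.7 against 34.3 and 35.0, the largest positive log2 change among the heavy chains of at least 1000 counts (0.50, SE 0.20, edgeR adjusted p = 0.241). Both *Tdrd6*-/- ratios lay under both *Tdrd6*+/- ratios in 26 of 48 genes with at least 100 gene counts, and in 38.0% of all genes in this test.

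The ratio also differed widely among the genes. Among the 50 genes tested, the lowest means were those of *Cfap97* (8.12), *Dnaaf2* (9.76) and *Cfap206* (13.4 intron counts per 100 gene counts). The highest were those of *Cfap299* (741), *Cfap77* (724) and *Cfap97d1* (222), the last 2 of which rest on only 24 to 53 and 4 to 31 gene counts per sample. Across the 48 genes the ratio was higher in genes with more sequence outside exons (Pearson's r 0.49 on log scales, Spearman's rho 0.50), a description over genes of the same libraries. *Dnah8*, with 226 kb outside its exons, had a mean of 14.5, and *Dnah14*, the nearest to it in this length (223 kb), one of 43.8. *Cfap61* (269.6 kb) had 147 and *Cfap54* (291 kb) 73.0.

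**Figure D4:**
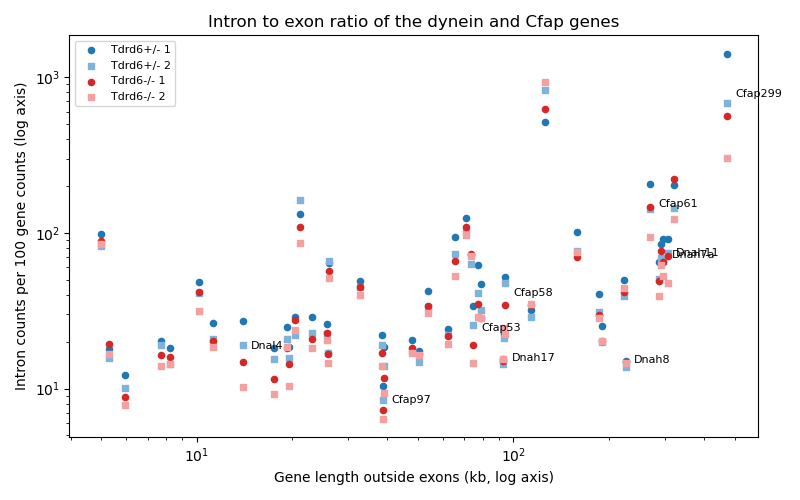
Intron counts per 100 gene counts of 48 genes in the 4 samples against gene length outside exons in kb, both on log axes. *Cfap299* lies at the top right with 303 to 1416, and *Dnah8* near 15 in all 4 samples despite its length.

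The introns of a gene were not covered evenly. In 29 genes whose introns could be placed and counted, the density of counts per kb was higher before the middle of the intron series in all 4 libraries for 10 genes, and higher after it for 16. In *Cfap206* the means were 196 against 68.0 counts per kb, 5′ part first. In *Cfap73* they were 1.76 against 294 and in *Dnal4* 0.291 against 46.9, so the annotated 5′ introns of these genes were nearly without counts.

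Intron usage asked whether single introns changed against the other introns of their gene, with the DEXSeq model fitted in DESeq2 (likelihood ratio test). Of 553 introns tested in 45 genes, 8 fell and 4 rose in 8 genes, which is 1.45% and 0.723%. Over all 28903 introns tested the figures were 1.22% and 0.716%, close to those of this set. Introns are numbered along the chromosome.

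*Cfap36* intron 7, position 4 of 10 from the 5′ end (chromosome 11, 29234473 to 29243823, minus strand), had the smallest p. Of the intron counts of *Cfap36* it held 20.6% and 17.9% in *Tdrd6*+/- and 12.5% and 9.96% in *Tdrd6*-/- (log2 change -0.92, SE 0.18, DESeq2 adjusted p = 0.00113). *Cfap69* intron 16 of 23 (minus strand, position 8 from the 5′ end) rose from 1.04% and 1.53% to 2.72% and 2.98% (log2 change 1.20, DESeq2 adjusted p = 0.00494). Against the exonic count its log2 change was 0.82 (DESeq2 adjusted p = 0.0904). *Cfap97*, with 6 introns, showed both directions. Its intron 5 (chromosome 8, 46181987 to 46191579, plus strand) fell from 23.7% and 24.9% to 17.2% and 15.0%, with a log2 change of -0.74 (DESeq2 adjusted p = 0.00522). Its much shorter intron 2 (46163864 to 46164761) rose from 19.0% and 25.2% to 28.5% and 32.9% (log2 change 0.65, DESeq2 adjusted p = 0.0653). Shares of a gene's introns are relative to each other. Against the exonic count the log2 change of this intron was 0.34 (DESeq2 adjusted p = 0.538), and without *Tdrd6*+/- 1 it was 0.39.

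*Cfap206* intron 2 (chromosome 4, 34692531 to 34711331, minus strand), the second to last from the 5′ end, held 31.7% and 28.7% against 23.9% and 19.6% (log2 change -0.64, DESeq2 adjusted p = 0.0313). *Dnaic1*, the outer arm intermediate chain, had 2 called introns, both lower. Its intron 1 (chromosome 4, 41570019 to 41596243, plus strand), with 26225 bp the longest of the 7 called introns that could be placed, fell from 20.9% and 21.1% to 16.0% and 15.0%. *Cfap61* intron 3 rose from 3.54% and 4.43% to 5.69% and 7.12% (log2 change 0.71, DESeq2 adjusted p = 0.0937). Against the exonic count its log2 change was 0.44 (DESeq2 adjusted p = 0.411).

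In the heavy chains the calls were in *Dnah7a* and *Dnah7b*, which share sequence as stated above. *Dnah7a* intron 58 of 65 (minus strand, position 8 from the 5′ end) held 2.66% and 2.09% against 1.33% and 1.31% (log2 change -0.86, DESeq2 adjusted p = 0.00836). In *Dnah7b* introns 20 and 6 of 65 fell and intron 1 rose, the first of them from 7.68% and 7.54% to 5.65% and 4.50% (log2 change -0.63, DESeq2 adjusted p = 0.0282). None of the tested introns of *Dnah8* was called. In each of the 12 introns the genotypes did not overlap, which selection by a small p all but fixes. None of the 12 was called without *Tdrd6*+/- 1 or without *Tdrd6*-/- 2, fits in which the calls over all introns went from 561 to 4 and 13. The log2 change of *Cfap36* intron 7 was -0.79 and -0.73 in these fits. That of *Dnah7b* intron 1 was 0.72 with all samples and 0.39 without *Tdrd6*-/- 2. Against the exonic count, with all samples, it was 0.64 (DESeq2 adjusted p = 0.195).

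**Figure D5:**
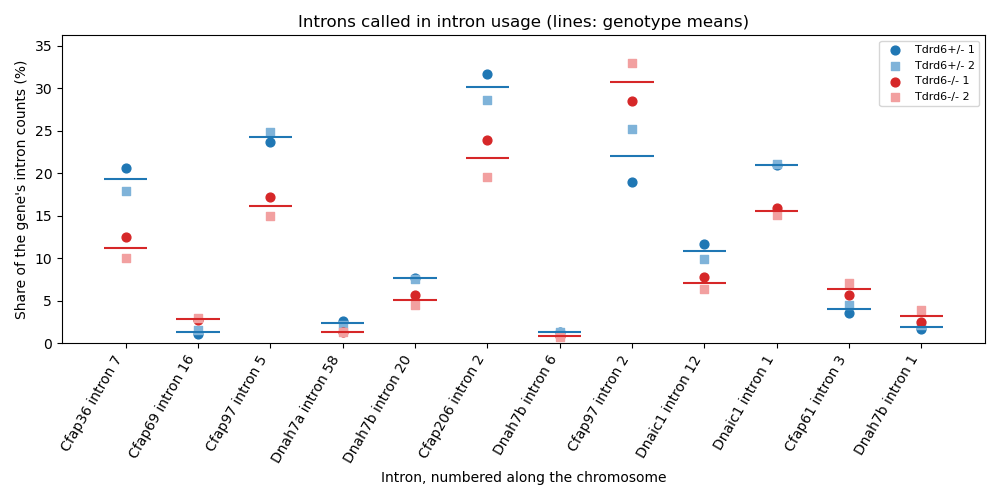
Share of the gene's intron counts, in percent, held by each of the 12 called introns in the 4 samples, with lines for genotype means. The *Tdrd6*-/- means are lower for 8 introns and higher for 4. The samples of the genotypes do not overlap, which selection by a small p all but fixes.

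Exon segments and junctions were tested against the total of their gene with the JunctionSeq model fitted in DESeq2 (likelihood ratio test). Of 2537 tested in 44 genes 5 rose (0.197%) and none fell, and 133 had an unadjusted p under 0.05. Over all 147710 tested 0.148% rose and 0.0731% fell, so the share that rose was close to that of all features. The exon segments among them lay at the 5′ end of their gene, in *Dnaaf1*, *Dnah8* and *Dnah1*, each of which also fell in gene expression. The junction, in *Dnaaf1*, was not placed.

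*Dnaaf1* held 3 of the called features, namely its first and second exon segments and a junction. The second segment is its exon 2, wholly coding, on the plus strand of GRCm38. It is shown because it carried the clearest change in an exon of the set, with the sequence taken from the GENCODE M21 transcript and no letters in capitals.
*Dnaaf1* exon 2, chr8:119577331-119577466, plus strand: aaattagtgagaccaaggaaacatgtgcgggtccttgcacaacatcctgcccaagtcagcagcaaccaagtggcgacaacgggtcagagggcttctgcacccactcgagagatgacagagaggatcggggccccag

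This exon had 7.15% and 7.76% of the gene's counts in *Tdrd6*+/- and 10.3% and 10.1% in *Tdrd6*-/- (log2 change 0.50, SE 0.10, DESeq2 adjusted p = 0.00383). The junction numbered 14 rose from 2.70% and 2.91% to 4.37% and 4.11% (log2 change 0.62, SE 0.12, DESeq2 adjusted p = 0.00169). Exon segment 1 (119575235 to 119575467) rose from 4.16% and 4.03% to 5.48% and 5.63% (log2 change 0.46, DESeq2 adjusted p = 0.0432). Counts of exon 2 itself were 984 and 1676 against 1469 and 1240, and those of the whole gene 13762 and 21606 against 14295 and 12227. Both overlapped between the genotypes before scaling. The first of 3 equal parts of the *Dnaaf1* segments held 17.6% and 19.0% in *Tdrd6*+/- and 22.8% and 22.9% in *Tdrd6*-/-.

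In *Dnah8* exon segment 1 held 0.192% and 0.178% of the gene's counts against 0.301% and 0.229% (log2 change 0.51, SE 0.13, DESeq2 adjusted p = 0.0556). In *Dnah1* segment 77, which is exon 2 of a transcript of 78 exons (chromosome 14, 31319725 to 31320046, minus strand), held 2.49% and 2.64% against 3.24% and 3.87% (log2 change 0.48, SE 0.12, DESeq2 adjusted p = 0.0661). The genotypes did not overlap in either, which their choice by a small p makes likely. The *Dnah1* segment was called in no fit that left out a sample, and that of *Dnah8* only in the fit without *Tdrd6*-/- 2, while without *Tdrd6*-/- 1 its log2 change was 0.31. *Dnaaf1* exon 2 was called only in the fit without *Tdrd6*+/- 2, its first segment in none, and the junction in the fits without either *Tdrd6*+/- sample. Over all genes the 5′ share was higher in *Tdrd6*-/-, as given above. In *Dnah8* itself that share overlapped between the genotypes, while in *Dnaaf1* it was higher in *Tdrd6*-/-. The part of that measure in the rise of 5′ segments was not tested.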

How the data were processed

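Total RNA, depleted of ribosomal RNA, was sequenced from 4 directional libraries. Per the study's methods the authors aligned fragments to mm10 with GSNAP and annotated them with Ensembl. bcl2fastq 1.8.4 is named in the submitters' processing notes. The deposited values are raw counts per gene, exon segment, junction and intron, not normalized. The counting program and its strand setting are not given in the sources used here, so reads of a gene and an antisense partner may not be told apart.

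Positions came from the GENCODE M21 annotation of GRCm38. Numbering followed the chromosome: counts tracked intron length at a median r of 0.82 in that order and -0.07 in reverse (1814 genes on the minus strand). Introns were placed in 35 of the genes studied (834 of 1604 introns). Replicates were no duplicates (chi-square per degree of freedom 20.7 and 18.6).

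Gene counts were tested with edgeR 4.0.16 in R 4.3.3 (TMM, filterByExpr, quasi-likelihood). The ratio was tested with the same tool. CPM are scaled by TMM. Usage was tested with DESeq2 1.42.0 on features of at least 10 counts, with independent filtering at a mean count of 85.5 for introns and 53.4 for exon segments and junctions. *Cfap43* and *Dnaaf3*, counted in merged rows, entered the gene test and no ratio, length comparison or 5′ share. Their CPM per kb divide the count of the merged row by the exon length of the named gene alone. All p-values were adjusted over all features (Benjamini-Hochberg, false discovery rate 0.1). Scripts were tested on simulated data. limma 3.58.1 served as an alternative.

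The genes and lists were chosen with earlier results of these data known. Named are all heavy chains, all genes called in expression or ratio, the 3 highest and 3 lowest by level and ratio, and called features up to 10, at most 1 per gene by rule. The other genes, introns and motifs named, and those shown by sequence, were chosen after their values were seen. Alternatives were other tools, scalings, filters, thresholds, the replicate block and leaving out each sample.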

Additional observations from a re-analysis of the deposited data

How the results depend on the processing

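With 2 samples per genotype, leaving out 1 changed which features were called. Genes called in expression (11) ranged from 3 to 13, genes called in the ratio (4) from 0 to 8, introns (12) from 0 to 18, and exon segments and junctions (5) from 0 to 7. In such fits the lone sample is assumed to vary like the other genotype. Without *Tdrd6*+/- 2 the count of 11 genes was 9 lower and 2 higher, of which 8 were shared. Without *Tdrd6*-/- 2 the 3 genes called in expression were *Dnah2* and *Dnah11*, both lower, and *Cfap100*, higher. Without *Tdrd6*+/- 1 or *Tdrd6*-/- 2 no gene was called in the ratio (unadjusted p under 0.05 for 5 and 6) and no intron in usage (22 and 27). Without *Tdrd6*-/- 1 no segment or junction was called (92), and 8 genes were called in the ratio, 4 of them higher. Of 255 alternative estimates of the 32 called genes and features, leaving out those equal to the main one by construction, none reversed, 141 stayed past the threshold and 114 did not. Without the filter on low counts edgeR called 0 genes of the set in expression (18 with an unadjusted p under 0.05, adjusted p = 0.112 for *Dnah2*), and over all genes 75 were called instead of 794. RLE size factors gave 9. DESeq2 called 11, of which 10 were shared, and did not call *Dnah11* (adjusted p = 0.368). In the ratio 1 gene was called with 1 scaling factor and 1 at a false discovery rate of 0.05, and 0 with DESeq2 or limma. With 1 scaling factor the median log2 change over all genes moved from 0.06 to -0.24. Intron calls came to 30 against the exonic count, 4 with edgeR, 6 at a false discovery rate of 0.05 and 4 without independent filtering. Segment and junction calls came to 10 with totals of their own, 3 at a false discovery rate of 0.05 and 3 without independent filtering. The cause of these changes was not tested.

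The replicate numbers pair nothing that the labels name. Deviations of samples with the same number correlated at -0.10 over 12347 genes and 0.06 over 44784 introns. With the replicate block 17 genes were called in expression, 16 lower and 1 higher (*Cfap45*), including all 11 called without it. The block gave 4 genes in the ratio, 16 introns, and 4 segments and junctions.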
